A study of Homo sapiens with 2 samples.

Results

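The insulin-like growth factor (IGF) system was examined through 10 genes: the ligand IGF1, the receptors IGF1R and IGF2R, and the 7 IGF binding proteins IGFBP1 to IGFBP7. They were chosen by name, and every probe set whose platform annotation names exactly 1 of them was used. All 10 were measured, on 29 probe sets, out of 19775 genes on 41091 probe sets. The study had 2 samples of Huh7, a long-established line from a human liver cancer, grown in DMEM with bovine serum. Each expressed a hairpin RNA (shRNA) from an integrated lentivirus: in the control a non-target sequence, in the other sample a sequence against CD24, a small cell surface glycoprotein. Whether each line was a clone or a pool of transduced cells is not stated in the labels, and the series compared transcripts after knockdown of CD24.

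IGF1 and IGF2 are circulating peptides that signal growth and survival through IGF1R, a tyrosine kinase receptor closely related to the insulin receptor. IGF2R binds IGF2 without kinase signalling, delivers it to the lysosome, and also sorts newly made lysosomal enzymes that carry mannose 6-phosphate. The binding proteins hold IGFs in plasma and tissue and control their access to the receptor, and the liver is the main source of circulating IGF1 and of several of them.

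Each group held 1 array, so no difference has a replicate check and no p-value was computed. On the deposited log2 scale every probe set had been centred on its own mean, so its values on the 2 arrays are equal and opposite and its level was not analysed here. All values below are log2 differences, CD24 shRNA minus control, unless a centred value is named, and a gene value is the mean over its probe sets. The error given is the SD over the probe sets of a gene, which leaves out the spread between cultures; for genes with 2 or more probe sets its pooled size was 0.27. CD24 itself was 2.58-fold lower in the array labelled CD24 shRNA (-1.37 ± 0.38, SD, 6 probe sets, all below 0). Hepatocyte markers could not be checked as present, since only differences could be used. Of 9 measured hepatocyte genes, 7 lay below 0, against 47.5% of all genes. Their median of -0.09 became 0.02 after scaling on the hybridisation controls, which moved the median of all genes from 0 to 0.11.

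By the mean over all probe sets, IGFBP3 had the largest difference of the members, 1.71-fold higher with CD24 shRNA, and its probe sets agreed. It did not rank first under each way of computing. Without dim or tied probe sets IGFBP1 was larger in size (-1.28). On single probe sets IGF1R (1.37), IGFBP1 (-1.28) and IGFBP5 (-1.04) were all larger in size. Without probe sets whose value 10 or more probe sets share, IGF1R was larger (1.01). IGF1R was up to 2.59-fold higher on single probe sets, but other IGF1R probe sets were at or below 0. IGFBP1 was 2.43-fold lower on one probe set and 1.28-fold higher on the other, and IGFBP5 ranged from 2.05-fold lower to 1.44-fold higher. IGF1, IGF2R, IGFBP2, IGFBP4, IGFBP6 and IGFBP7 had gene means between -0.33 and -0.09, of which IGF2R and IGFBP7 turned to 0.02 under scaling on the hybridisation controls. By gene mean, 0 of the 10 were at least 2-fold higher, against a background of 0.632% of all genes, and 0 were at least 2-fold lower, against 0.485%. At 1.5-fold, 1 member was higher (IGFBP3), against 2.63% of genes, and 0 were lower, against 2.38%.

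**Figure D1:**
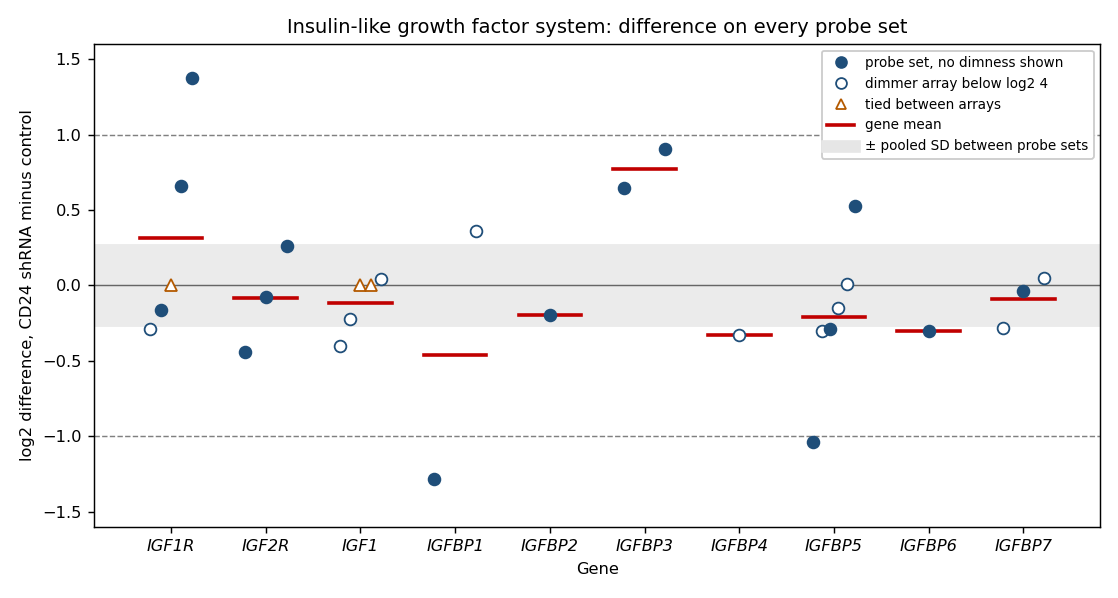
Log2 difference, CD24 shRNA minus control, on each of the 29 probe sets of the 10 genes (points), with the gene mean (red bar), the pooled SD between probe sets (grey band) and 2-fold differences (dashed lines). Open circles are probe sets whose dimmer array lies below a log2 value of 4 and triangles are probe sets tied between the arrays. Both IGFBP3 points lie above 0.6, whereas IGF1R and IGFBP1 have points on both sides of 0.

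Small negative means were the most common pattern. Of the 10 gene means, 8 lay below 0, against 47.5% of all genes, with a median of -0.16 against 0 over all genes. Scaling to the hybridisation controls raised each difference by 0.11, after which 6 lay below 0 and the median became -0.04, against 28.6% of all genes and a median of 0.11. The distance of the members' median from that of all genes is the same under both scalings, by construction. The means of 5 members were smaller in size than the pooled SD between probe sets, and those of 5 were larger. Of the 7 members with several probe sets, 6 had probe sets on both sides of 0, compared with 51.6% of all genes with several. This comparison was not matched for the number of probe sets per gene, which reached 6 among the members. Single probe sets were at least 2-fold higher in 1 of 29, against 1.01% of all probe sets, and at least 2-fold lower in 2 of 29, against 0.601%.

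**Figure D2:**
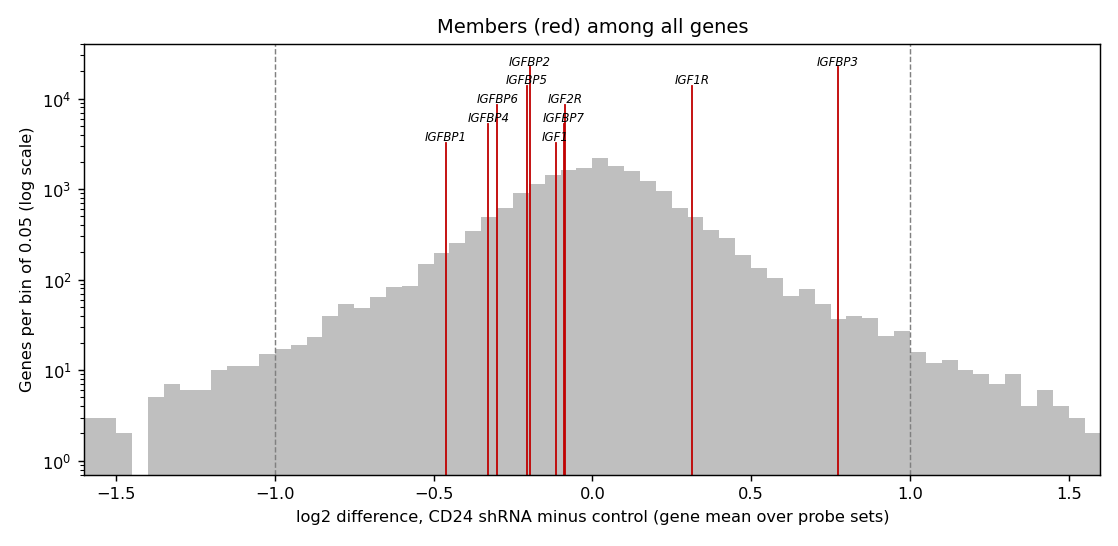
Histogram of the gene-mean log2 difference of all genes (grey, genes per bin on a log scale; values beyond 1.6 in size are not drawn), with the 10 members as red lines and 2-fold differences as dashed lines. Only IGF1R and IGFBP3 lie above 0 (with IGF2R and IGFBP7, at 0.02, if scaled on the hybridisation controls), and no member passes a dashed line.

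Some probe sets are dim on the array, and the digits of the deposited numbers show this for part of them. Of the 29, the digits placed 11 with the dimmer array below a log2 value of 4, and 3 were tied at 0 on both arrays; the other 15 may be bright or dim. Over all probe sets used, 26.9% were placed below 4, compared with 37.9% of the members' probe sets. Probe sets placed below 4 are called dim below.

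Promoter sequences are shown for IGFBP3 and IGF1R, the members with the highest means, and for IGF2R, whose start carries 3 E-boxes, to compare the letters at their starts. They come from RefSeq (GRCh38.p14), run 5′ to 3′ on the gene's strand, and span 250 bases before to 50 after the annotated start. Capitals mark matches on either strand to TATANA (TATA box), GGGCGG (GC box), CACGTG (E-box), GTAAACA (forkhead) or GGAATG (TEAD). Matches are letters only and no binding was measured.
IGFBP3, chr7:45921223-45921522, minus strand: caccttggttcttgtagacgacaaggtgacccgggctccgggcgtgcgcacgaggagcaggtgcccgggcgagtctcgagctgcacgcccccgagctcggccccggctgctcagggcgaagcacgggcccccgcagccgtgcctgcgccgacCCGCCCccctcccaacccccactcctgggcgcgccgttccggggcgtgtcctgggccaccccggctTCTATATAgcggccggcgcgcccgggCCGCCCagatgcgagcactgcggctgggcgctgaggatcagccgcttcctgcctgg
IGF1R, chr15:98648289-98648588, plus strand: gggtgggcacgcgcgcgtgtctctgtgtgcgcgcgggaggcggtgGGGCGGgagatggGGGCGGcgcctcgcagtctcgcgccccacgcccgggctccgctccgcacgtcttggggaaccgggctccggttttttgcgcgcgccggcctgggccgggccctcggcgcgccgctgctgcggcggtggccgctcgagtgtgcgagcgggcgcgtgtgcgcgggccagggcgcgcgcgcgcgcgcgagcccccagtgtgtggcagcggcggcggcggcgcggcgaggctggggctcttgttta
IGF2R, chr6:159968832-159969131, plus strand: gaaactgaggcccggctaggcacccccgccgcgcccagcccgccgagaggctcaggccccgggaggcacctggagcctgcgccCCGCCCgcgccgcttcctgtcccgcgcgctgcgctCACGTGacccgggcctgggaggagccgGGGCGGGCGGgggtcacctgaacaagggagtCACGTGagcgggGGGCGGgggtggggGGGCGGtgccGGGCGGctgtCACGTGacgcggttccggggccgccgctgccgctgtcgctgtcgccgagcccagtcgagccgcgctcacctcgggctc
IGFBP3 held 2 overlapping matches to the TATA motif and 2 GC boxes, and IGF1R held 2 GC boxes and no TATA match. IGF2R held 3 E-boxes and 6 GC boxes. Of 35116 promoters of this length, 19.0% held the TATA motif, 45.0% the GC box and 7.26% the E-box. At 3 or more matches the shares were 15.8% for the GC box and 0.094% for the E-box. IGF2R was shown because of its E-boxes, so the E-box share is no test of it. GC content was 74.7% for IGFBP3, 79.7% for IGF1R and 78.7% for IGF2R, against a median of 58.7% over all. In all, 8 of the 10 members had 11 promoters in the table, and IGFBP1 and IGFBP7 were the other two. The forkhead letters (3.42% of promoters) occurred in 1 promoter of IGF1 and in IGFBP6, and the TEAD letters (14.0%) in IGFBP5 and IGFBP6.

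The ligand IGF1, which hepatocytes secrete under growth hormone, was measured by 5 probe sets, each of them dim or tied. Its centred values in the control and the CD24 shRNA array were 0.20 and -0.20 on 241072_s_at, 0.11 and -0.11 on 209541_at, and -0.02 and 0.02 on 209540_at. The remaining pair, 209542_x_at and 211577_s_at, was tied. The mean difference was -0.12 ± 0.19 (SD, 5 probe sets), within the pooled SD between probe sets, and it was -0.00456 after scaling on the hybridisation controls. IGF2, the fetal ligand, was not a member: its 3 probe sets name INS-IGF2 as well, the readthrough transcript of the insulin and IGF2 genes. They lay at -0.11, -0.25 and -0.20, with a mean of -0.19 ± 0.07 (SD, 3 probe sets), and none was shown to be dim. INS, the insulin gene, had a difference of -0.53 on 1 dim probe set.

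IGF1R, the signalling receptor, differed between its own probe sets more than most genes. The highest, 203627_at, had centred values of -0.69 in the control and 0.69 in the CD24 shRNA array, a difference of 1.37. The next, 225330_at, had -0.33 and 0.33, a difference of 0.66. Both of these were higher with CD24 shRNA, and neither was shown to be dim. On 203628_at the difference was -0.17, on 208441_at, which was dim, -0.29, and 243358_at was tied. The gene mean was 0.31 ± 0.69 (SD, 5 probe sets), or 1.24-fold higher, and 130 of 10523 genes with several probe sets (1.24%) had an SD as large. Without dim and tied probe sets the mean was 0.62 ± 0.77 (SD, 3 probe sets), and the median over all 5 was 0. The size of the IGF1R mean thus depended on which probe sets entered it. 208441_at is the one that the platform table pairs with a RefSeq mRNA of the gene, and the other 4 are paired with other GenBank sequences.

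IGF2R, the mannose 6-phosphate receptor, had 3 probe sets, none shown to be dim. Their differences were -0.44 on 1569052_at, -0.07 on 201392_s_at and 0.26 on 201393_s_at. The mean was -0.09 ± 0.35 (SD, 3 probe sets), well within the spread of its own probe sets. With the hybridisation scaling it was 0.02. The value on 1569052_at alone was -0.44, and this is the one IGF2R probe set whose name does not end in _s_at, a suffix for probe sets that can match more than 1 transcript.

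IGFBP3, the main carrier of IGFs in plasma together with the acid-labile subunit, was higher on both of its probe sets. The centred values were -0.45 in the control and 0.45 in the CD24 shRNA array on 212143_s_at, and -0.32 and 0.32 on 210095_s_at. The probe sets agreed on the direction and neither was shown to be dim. The mean difference was 0.77 ± 0.18 (SD, 2 probe sets), and 271 of 19775 genes (1.37%) had a difference as high or higher. Both names end in _s_at, so IGFBP3 had no value without such probe sets. In the RefSeq gene order of GRCh38.p14, IGFBP3 on chromosome 7 has IGFBP1 as its adjacent protein-coding gene, and IGFBP2 and IGFBP5 are adjacent on chromosome 2.

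IGFBP1, a liver-secreted binding protein known for its repression by insulin and its induction in fasting, gave opposite differences on its 2 probe sets. On 205302_at the centred value was 0.64 in the control and -0.64 in the CD24 shRNA array, a difference of -1.28. This probe set is paired with a RefSeq mRNA of IGFBP1 and was not shown to be dim. On 237989_at, which is dim and paired with another GenBank sequence, the centred values were -0.18 and 0.18, a difference of 0.36. Averaging both gave -0.46 ± 1.16 (SD, 2 probe sets), or 1.38-fold lower, an SD that 21 of 10523 genes (0.200%) reached. Without the dim probe set IGFBP1 was 2.43-fold lower. On 205302_at IGFBP1 thus lay on the opposite side of 0 from its neighbour IGFBP3.

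IGFBP5, a binding protein of matrix and mesenchymal cells, had 6 probe sets, 4 below 0 and 2 above. The lowest was 211959_at, with centred values of 0.52 in the control and -0.52 in the CD24 shRNA array, a difference of -1.04. The highest was 203425_s_at, with -0.26 and 0.26, a difference of 0.53. Between them lay 203426_s_at at -0.30, 203424_s_at at -0.29, 1555997_s_at at -0.15 and 211958_at at 0.01. The mean of -0.21 ± 0.51 (SD, 6 probe sets) was smaller than this spread, and 465 of 10523 genes (4.42%) had an SD as large. Of the 6, 3 were dim (203426_s_at, 1555997_s_at and 211958_at), and without them the mean was -0.27 ± 0.78 (SD, 3 probe sets). Without _s_at probe sets it was -0.51. IGFBP2, its neighbour and an abundant binding protein of fetal liver, was measured by 1 probe set, with centred values of 0.10 and -0.10 and a difference of -0.20.

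The other binding proteins had means below 0, between -0.33 and -0.09. IGFBP4, a soluble inhibitor of IGF action that the protease PAPPA cleaves, had centred values of 0.16 in the control and -0.16 in the CD24 shRNA array on its 1 probe set, which was dim (difference -0.33). IGFBP6, which prefers IGF2 over IGF1, had 0.15 and -0.15 on 1 probe set that was not shown to be dim (difference -0.30). IGFBP7, a secreted relative with low affinity for IGFs that endothelial cells make in quantity, lay at -0.28, -0.04 and 0.05 on its 3 probe sets, and the first and last of these were dim. Its mean was -0.09 ± 0.17 (SD, 3 probe sets). The values of IGFBP4 and IGFBP6 were slightly larger than the pooled SD of 0.27 and that of IGFBP7 was smaller, and after the hybridisation scaling they were -0.22, -0.19 and 0.02.

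**Figure D3:**
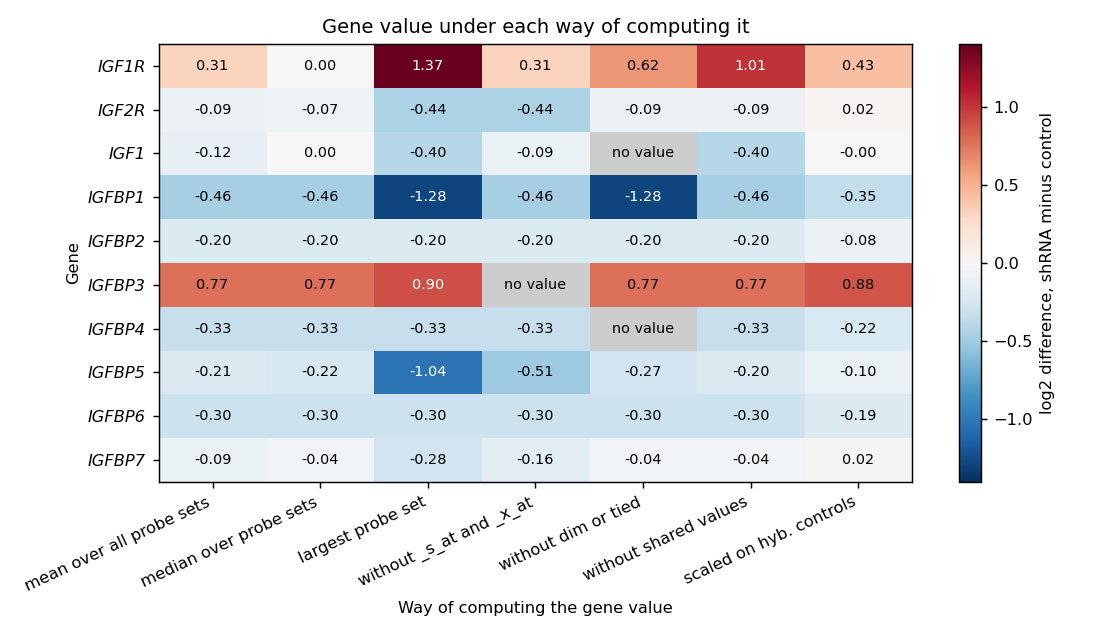
Log2 difference of each gene (rows) under 7 ways of computing it (columns), with the value printed in each cell and coloured from blue (lower with CD24 shRNA) to red (higher); grey cells have no probe set left. IGFBP3 is between 0.77 and 0.90 wherever it has a value, whereas IGF1R runs from 0 to 1.37 and IGFBP1 from -1.28 to -0.35.

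Around the members, genes of the pathway were taken from lists written for this report. Of 13 genes of the insulin receptor family and its adaptors, 1 was at least 1.5-fold higher and 0 lower, with a median of 0.06. It was IRS2, the main insulin receptor substrate of liver, 1.74-fold higher and concordant on its probe sets 209185_s_at at 0.91 and 209184_s_at at 0.69 (0.80 ± 0.16, SD, 2 probe sets). The PI3K-AKT-mTOR route carries the signal from IGF1R inward. Of its 20 measured genes (24 listed), 16 lay above 0, against 49.4% of all genes, with a median of 0.10. After the hybridisation scaling the count above 0 was again 16, while only 28.6% of all genes lay below 0. The lowest was PIK3R1 at -0.56, and 1 gene was at least 1.5-fold higher. It was PHLPP2, a phosphatase of AKT, at 1.12 on 213407_at and 0.26 on the dim 214944_at. Of 11 liver genes that insulin represses through FOXO1, a list that IGFBP1 would belong to, 5 lay above 0 and 6 below (median -0.23). IRS2, counted above with the adaptors, was not on this list. At 1.5-fold, 2 were lower and 0 higher. These were PCK1, a gluconeogenic enzyme (-0.90, 1 probe set), and APOC3, an apolipoprotein (-0.67 ± 0.23, SD, 2 probe sets). The background at this threshold was 2.63% of genes higher and 2.38% lower. With the hybridisation scaling, 1 FOXO1 gene was lower and 1 higher by this measure. Nothing particular to these lists is read from counts of 1 or 2 genes.

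Of 11 binding protein partners, proteases and protease inhibitors, 6 lay above 0 and 5 below. At the 1.5-fold threshold 3 were lower and 0 higher, against 2.38% and 2.63% of all genes, with a list median of 0.000348. PLG, the precursor of plasmin, which can cleave binding proteins, was 2.24-fold lower on 3 probe sets that agreed, 1 of them dim (-1.17 ± 0.22, SD), and F2, prothrombin, was 1.65-fold lower on 1 probe set. STC2, stanniocalcin 2, an inhibitor of PAPPA, lay at -1.20 on 203438_at and -0.13 on 203439_s_at. With the hybridisation scaling, 2 of the 3 stayed at least 1.5-fold lower, and STC2 lay at -0.55. PLG and F2 are also plasma proteins of hepatocytes.

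Other genes encode proteins with an IGFBP domain that do not serve mainly as IGF carriers. Of 12 measured, 3 were at least 1.5-fold higher and 0 lower (median 0.03), against 2.63% and 2.38% of all genes. CCN1, a matricellular protein, was 4.23-fold higher (2.08 ± 0.30, SD, 2 probe sets), CRIM1, a membrane protein that binds BMPs, 1.84-fold (0.88 ± 0.05, SD, 3 probe sets), and CCN3 1.79-fold (0.84 ± 0.40, SD, 2 probe sets, 1 of them dim). The other 9 had means between -0.37 and 0.22.

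In the growth hormone axis, which drives IGF1 in liver, 1 of 10 genes was at least 1.5-fold higher and 0 lower (median 0.06). Over all genes the shares were 2.63% and 2.38%. SOCS2, a feedback inhibitor of growth hormone signalling, was 2.19-fold higher on average, at 1.81 on 203373_at and 1.58 on 203372_s_at and tied on 232539_at. The mannose 6-phosphate sorting partners of IGF2R had 0 of 12 measured genes (13 listed) past 1.5-fold (median 0.08), with NAGPA, which uncovers the mannose 6-phosphate tag, the furthest at 0.42 on 1 probe set. The IGF2 mRNA-binding proteins, oncofetal regulators of IGF2 and other transcripts, had means of 0.01 to 0.19 (3 genes), the highest being IGF2BP3 at 0.19 ± 0.28 (SD, 4 probe sets).

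**Figure D4:**
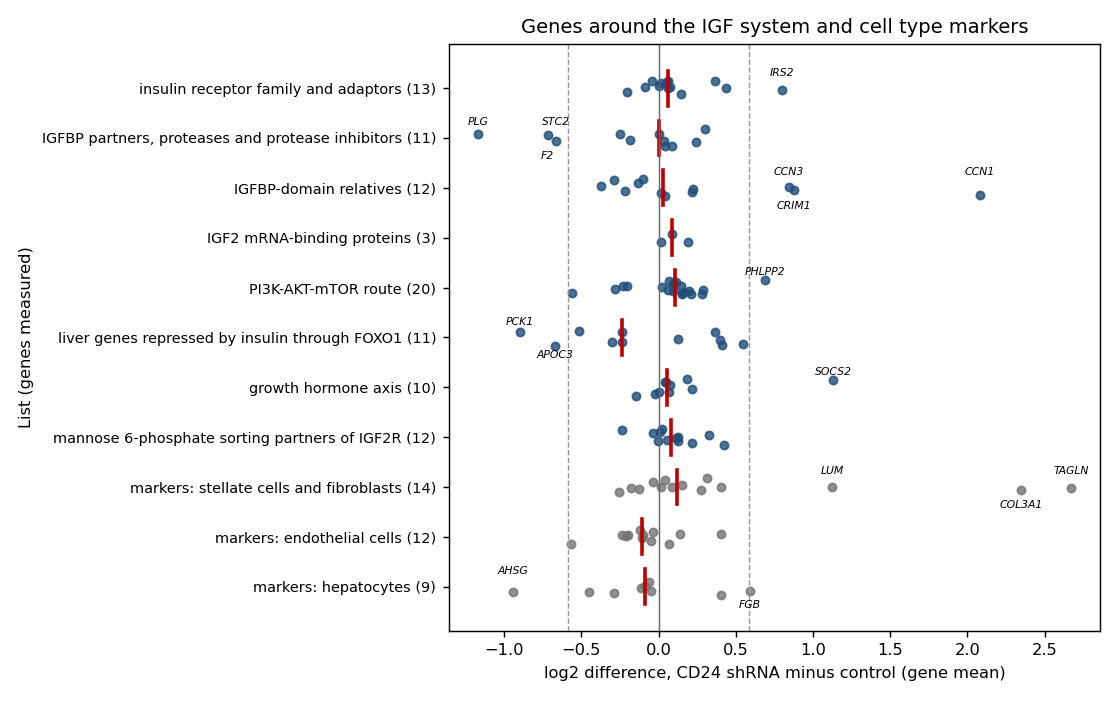
Gene-mean log2 difference, CD24 shRNA minus control, for the genes of each list other than the ligands, where only INS was measured (points; number measured in brackets), with the list median as a red bar and 1.5-fold differences as dashed lines; marker lists are grey and genes past 1.5-fold are named. The medians of the lists drawn lie between -0.23 and 0.12, and single genes such as CCN1, SOCS2, IRS2 and PLG lie outside the dashed lines.

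IGFBP3, IGFBP5 and IGFBP7 are also made by stromal and endothelial cells, so markers of these are given beside them. Of 14 stellate cell and fibroblast markers, 10 lay above 0 and 4 below, with a median of 0.12. At 1.5-fold, 3 were higher and 0 lower, against 2.63% and 2.38% of all genes. These were TAGLN (2.67 ± 2.27, SD, 3 probe sets), COL3A1 (2.35 ± 1.77, SD, 5 probe sets, 4 of them dim) and LUM (1.12 ± 1.41, SD, 2 probe sets, both dim), each with probe sets that disagreed widely. TAGLN ran from 0.05 to 4.02 on probe sets not shown to be dim, and COL3A1 lay at 3.78 without its dim probe sets. The collagen genes COL1A1 and COL1A2 lay at -0.13 and 0.28, PDGFRB at 0.02 and ACTA2 at 0.40. ACTA2 had 3 probe sets, 2 of them dim, and lay at 1.00 without those. Of 12 endothelial markers, 0 passed 1.5-fold, and the furthest was EGFL7 at -0.57. Of the 12, 9 lay below 0, against 47.5% of all genes. Their median of -0.10 became 0.01 with the hybridisation scaling, which moved the median of all genes from 0 to 0.11. Among hepatocyte markers, AHSG was lower (-0.94 ± 0.13, SD, 2 probe sets) and FGB higher (0.59 ± 0.02, SD, 2 probe sets). Both samples were cultures of the Huh7 line, so the markers are transcripts of that line and do not count stromal or endothelial cells. A change in a share of the Huh7 cells and a change in RNA per cell cannot be told apart here. No level of a marker could be summed, and the part of these markers in the IGFBP values was not tested.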

How the data were processed

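Total RNA of 2 Huh7 cultures was measured on 1 Affymetrix array each. The authors deposited values on a log2 scale, made with RMA (background correction, quantile normalisation and probe summary), per the submitters' processing notes; the sources used here name neither software nor later steps. The 2 values of every probe set sum to 0 within 1e-06, so each was centred on its 2 arrays before deposit and no level or detection call was used. The log2 scale follows from RMA, and CD24 gives the direction.

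Of 54675 probe sets, 41091 name 1 gene in GEO's platform annotation and were used; 1801 name several, 11721 none here and 62 are controls. Gene values are means over probe sets (Python 3.11.15, pandas 2.3.3). A 2-fold threshold was used, and 1.5-fold for lists; with 1 array per group there is no test and the precision is that of a single pair of arrays. Single-precision numbers have finer steps below 4, so a centred value that is no multiple of the step at 4 places its dimmer array below 4; only part of the dim probe sets show this. The hybridisation scaling sets the median of 18 control probe sets to 0. Calculations were tested on simulated data.

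The members and lists were chosen with earlier results of these data known. All members are named, and from each list the genes past 1.5-fold or else the furthest one. PIK3R1 and the stromal COL1A1, COL1A2, PDGFRB and ACTA2 were named after their values were seen. Likeness of patterns could not be ranked with 2 samples. Alternatives were other ways to combine or leave out probe sets, scaling, centring and other thresholds.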

Additional observations from a re-analysis of the deposited data

How the results depend on the processing

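No member was at least 2-fold higher or lower by gene mean, and this count moved with the choice of probe sets. With the probe set of largest difference per gene, 1 member was higher (IGF1R) and 2 were lower (IGFBP1 and IGFBP5), against 1.53% and 1.06% of genes, a setting that favours genes with many probe sets. Without dim or tied probe sets, 1 was lower (IGFBP1, against 0.702%) and IGF1 and IGFBP4 had no value. Without probe sets whose value, regardless of sign, 10 or more probe sets share, an alternative chosen after seeing the data, 1 was higher (IGF1R, against 1.25%). At 1.5-fold, 1 was higher (IGFBP3). IGFBP3 had the largest gene value except with the largest probe set (IGF1R), without dim or tied probe sets (IGFBP1), without shared values (IGF1R) and without _s_at and _x_at probe sets, where it had no value. The cause of these changes beyond the choice of probe sets and threshold was not tested. The median over members ranged from -0.31 with the largest probe set to -0.04 with the hybridisation scaling. Of 67 values of single members under these alternatives, 59 moved by less than the SD over probe sets (the pooled SD for genes with 1), and 8 by more. The hybridisation scaling adds 0.11 to every gene, the median of all genes included, so the means of IGF2R and IGFBP7, which lay closer to 0 than that, changed sign by construction. Centring on the median of all genes, which is 0, and a 3-fold threshold left the counts at 0. No paired analysis was possible because each group has 1 array. The table holds no levels, so signal over background limits every value by an amount that was not measured.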

Other observations

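Many probe sets of the table hold a centred value of the same size, regardless of sign. To 6 decimals, the size of the centred value was shared by 10 or more probe sets in 41.0% of the 41091 probe sets used, and 364 probe sets had the most common size above 0, which was 0.0519. Sharing was more frequent among probe sets placed below a log2 value of 4 (64.9% of 11047) than among those neither placed there nor tied (26.6% of 27770). The largest difference held by a shared value was 0.65 in size. The cause was not tested.

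Of the members' 29 probe sets, 11 held a shared size, the 3 tied ones included, and 8 held a size of their own. IGF1R 203628_at, the probe set at -0.17 that was not shown to be dim, had a centred value whose size, regardless of sign, 53 probe sets held, and 208441_at one whose size 14 held, whereas 203627_at and 225330_at, both higher with CD24 shRNA, were alone with the size of theirs. Without shared values IGF1R stood at 1.01 ± 0.51 (SD, 2 probe sets), or 2.02-fold higher, against 0.31 over all its probe sets. IGFBP7 213910_at and 201163_s_at had sizes that 150 and 108 probe sets held, and 203426_s_at of IGFBP5 one that 129 held. IGFBP3 and IGFBP1 kept their means of 0.77 and -0.46, since neither has a size that 10 or more probe sets hold. Because no shared value exceeds a difference of 0.65 in size and ties are among them, leaving them out removes only small differences, and the higher IGF1R mean follows from that.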
